A study of Mus musculus with 1 sample.

Results

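The GIMAP family (GTPases of immunity-associated proteins) was followed in peripheral T cells of 1 mouse with small cell lung cancer (SCLC). Its members were taken by gene symbol: Gimap1, Gimap3, Gimap4, Gimap5, Gimap6, Gimap7, Gimap8 and Gimap9, which are 8 of the 32285 genes of the count matrix. All 8 had UMIs (unique molecular identifiers, the tags that mark single captured RNA molecules). The mouse belonged to an autochthonous model in which Rb1 and Trp53 are deleted conditionally after adenovirus carrying Cre is given into the trachea, on a C57BL/6 background, and it received the vehicle, phosphate-buffered saline, every 3 days. From 150 µl of blood, red cells were lysed and T cells were enriched by negative selection before droplet sequencing of gene expression and T cell receptors. There is 1 library of 1 mouse, so no value has replicate error and no test between animals exists. The age and sex of the animal are not given in the sources used here, and the combination-treated and healthy mice were not analysed here.

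GIMAP proteins share a GTP-binding domain of the AIG1 type and are most abundant in lymphocytes. They are known for keeping naive and resting lymphocytes alive: loss of Gimap5, a lysosomal member, depletes peripheral T cells in rodents, and loss of Gimap1 depletes mature T and B cells. Gimap3 is a close relative of Gimap5 that sits on mitochondria, Gimap4 influences how T cells complete apoptosis, Gimap6 takes part in autophagy by binding a GABARAP protein, Gimap7 is a GTPase that is active as a dimer, and Gimap8 carries several GTP-binding domains in 1 chain.

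The genes lie side by side on mouse chromosome 6. In RefSeq on GRCm38.p6 they span chr6:48647186-48770851, or 124 kb, in the order Gimap8, Gimap9, Gimap4, Gimap6, Gimap7, Gimap1, Gimap5 and Gimap3. Gimap6 and Gimap3 are on the minus strand and the other 6 are on the plus strand. Only 2 other RefSeq genes, the pseudogene Gm44262 and the long noncoding RNA Gm46958, lie within that span. All 8 members matched a RefSeq promoter entry, a window of 250 bases before and 50 after the start of transcription, and Gimap8 has 2 such entries.

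The upstream bases of Gimap7, Gimap4 and Gimap1 are shown because these are the members whose promoter windows hold the letters TGTGGT (a RUNX motif) on either strand. Capitals mark that motif and the ETS motif GGAAG, or their reverse complements. The runs are 5′ to 3′ on the plus strand and end 1 base before the start of the gene, at chr6:48718371-48718620 for Gimap7, chr6:48684328-48684577 for Gimap4 and chr6:48738797-48739046 for Gimap1.
Gimap7: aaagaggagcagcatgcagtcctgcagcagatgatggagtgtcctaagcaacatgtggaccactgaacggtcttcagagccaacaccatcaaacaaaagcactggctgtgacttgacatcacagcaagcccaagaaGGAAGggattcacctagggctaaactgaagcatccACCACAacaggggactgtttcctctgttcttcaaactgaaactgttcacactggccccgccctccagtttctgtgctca
Gimap4: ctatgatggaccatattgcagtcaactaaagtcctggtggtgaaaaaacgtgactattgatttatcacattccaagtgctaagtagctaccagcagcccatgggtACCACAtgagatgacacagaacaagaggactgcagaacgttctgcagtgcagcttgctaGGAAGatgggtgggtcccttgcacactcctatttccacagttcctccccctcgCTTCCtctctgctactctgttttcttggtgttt
Gimap1: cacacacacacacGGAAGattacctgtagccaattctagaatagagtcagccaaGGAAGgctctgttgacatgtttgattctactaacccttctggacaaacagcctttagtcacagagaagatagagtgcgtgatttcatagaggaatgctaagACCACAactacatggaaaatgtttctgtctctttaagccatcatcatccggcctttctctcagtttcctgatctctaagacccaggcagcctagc

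ETS and RUNX proteins are transcription factors with known roles in T cells. The letters GGAAG were found in 9 of the 9 windows of the family and in 71.4% of all 32851 promoter windows. TGTGGT was found in 3 of the 9 and in 16.8% of all windows. GGTGTG, a T-box motif, was found in 3 of the 9 (Gimap3 and both Gimap8 windows) and in 19.0% of all windows. CTTTGA, a TCF motif, was found in 2 of 9 against 16.0%, and CACCC, a KLF motif, in 6 of 9 against 57.5%. The 2 Gimap8 windows overlap, and their GGTGTG match is the same site. Counted by member, GGAAG was found in 8 of 8, TGTGGT in 3, GGTGTG in 2, CTTTGA in 2 and CACCC in 5. Both strands were searched, and no 2 of the motifs share letters in the runs shown. These are matches of letters only, and nothing in this library measures binding.

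Barcodes (droplets) were taken as cells above a limit on their UMIs, which left 1600 of 300213 barcodes with 1334 to 18399 UMIs. They were classed by UMIs of marker genes and by the share of their UMIs that came from ribosomal protein genes, split at 10%. In the order of at least 10% and under 10%, there were 225 and 141 barcodes with Cd4 only, 404 and 194 with Cd8a or Cd8b1 and no UMI of the granzyme genes Gzmk, Gzma and Gzmb, 98 and 10 with Cd8a or Cd8b1 and a granzyme UMI, and 66 and 24 with Cd79a, a B cell gene. The remaining 438 barcodes held none of these genes or a mix of them. The T cell label held for the T classes at a ribosomal share of at least 10%: the T cell receptor component Cd3e was found in 217 of 225, 398 of 404 and 97 of 98 barcodes, and a clonotype was assigned to 92.3% to 95.1% of them. In the Cd79a barcodes Cd3e was found in 4 of 66. The classes differed in depth, with medians of 4212 UMIs for Cd4, 8023 for CD8 without granzyme UMIs, 5582 for CD8 with them and 3915 for Cd79a, and ribosomal protein genes took 35.5% of the UMIs of CD8 barcodes without granzyme UMIs against 22.6% to 25.4% in the other 3 classes. A level per 10000 UMIs therefore has a different make-up in its denominator from class to class, and each class comparison is also given without ribosomal protein and mitochondrial genes in the denominator and as UMIs per barcode. Brackets after levels are exact 95% Poisson intervals, brackets after ratios are exact conditional binomial intervals, and both cover counting error only. UMIs are not divided by gene length, so levels of different genes are not ranked as amounts of RNA.

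The family was found in almost every lymphocyte barcode. It was much rarer in barcodes with markers of blood cells outside the lymphocytes and no CD3 or Cd79a UMI. A UMI of at least 1 member was present in 225 of 225 Cd4 barcodes, 402 of 404 CD8 barcodes without granzyme UMIs, 98 of 98 with them and 64 of 66 Cd79a barcodes at a ribosomal share of at least 10%. As a background, barcodes with markers of cells that should lack the genes and no CD3 or Cd79a UMI were counted. That rule was set after the data were seen. It leaves out barcodes that also hold such T or B cell RNA, so it favours low counts. Barcodes of 10 to 50 UMIs, taken without it, had 13.4 family UMIs per 10000. Under the rule, 21 barcodes with erythroid markers (median 4124 UMIs) held 0 family UMIs, which allows up to 0.369 per 10000. Those with neutrophil markers (18 barcodes, median 3070 UMIs) held 3, or 0.515 per 10000, and those with monocyte markers (12 barcodes, median 4311 UMIs) held 2, or 0.265 per 10000. Those with platelet markers (14 barcodes, median 1670 UMIs) held 6, or 2.48 per 10000 (0.910 to 5.39). By contrast, 11 barcodes with markers of natural killer cells and no CD3 or Cd79a UMI held 129 family UMIs, 28.7 per 10000 (23.9 to 34.1), and all 11 had at least 1.

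Summed over the 8 members, the level at a ribosomal share of at least 10% was 29.0 UMIs per 10000 (27.6 to 30.4) in CD8 barcodes with granzyme UMIs and 27.1 (26.1 to 28.1) in Cd4 barcodes. It was 20.3 (18.6 to 22.0) in Cd79a barcodes and 16.8 (16.4 to 17.3) in CD8 barcodes without granzyme UMIs. The intervals of the first and second overlapped, and the other neighbours in that order did not. At a ribosomal share under 10% the levels were 24.0 in Cd4, 23.4 in CD8 with granzyme UMIs, 17.1 in CD8 without them and 13.2 in Cd79a barcodes. Single barcodes varied widely within every class: the quartiles were 21.1 and 38.6 per 10000 in CD8 barcodes with granzyme UMIs and 12 and 21.6 in those without.

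**Figure D1:**
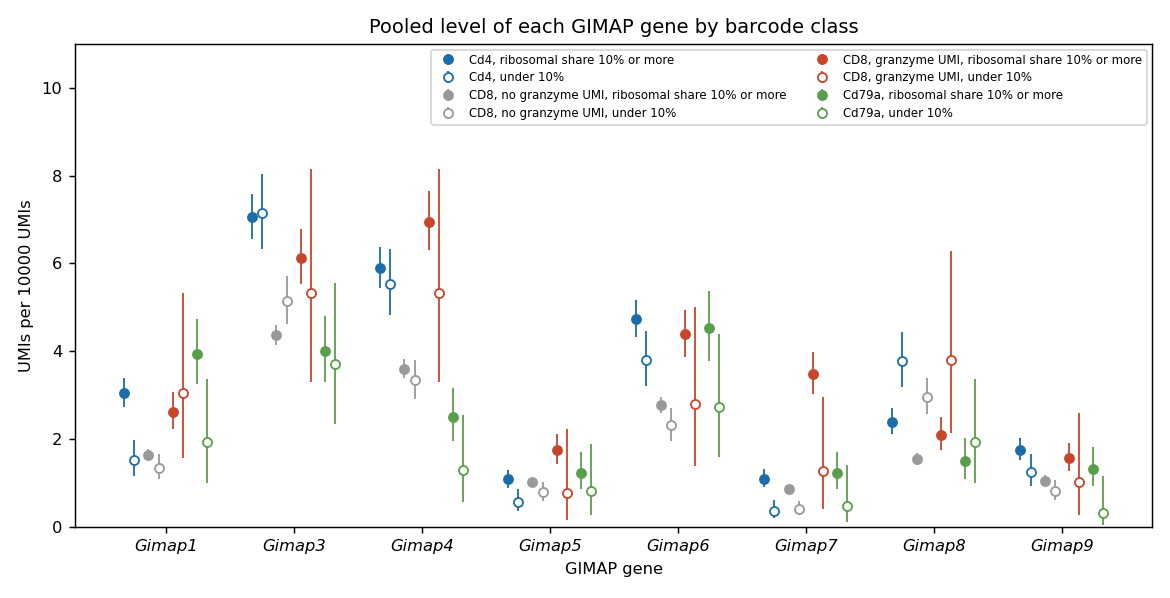
Pooled UMIs per 10000 UMIs (y axis) of each GIMAP gene (x axis) in the 4 classes. Filled points are barcodes with a ribosomal protein share of at least 10%, open points those under 10%, and bars are exact 95% Poisson intervals. Gimap7 stood at 3.47 in CD8 barcodes with granzyme UMIs and at 1.22 or less in the other 3 classes of filled points, while the open points of Gimap8 lay above its filled points in every class.

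Gimap7 was the member that differed most between the CD8 classes. It stood at 3.47 UMIs per 10000 (3.02 to 3.98) in CD8 barcodes with granzyme UMIs, at 1.22 (0.850 to 1.70) in Cd79a, at 1.09 (0.898 to 1.31) in Cd4 and at 0.852 (0.754 to 0.960) in CD8 barcodes without granzyme UMIs. The first level did not overlap with the others, and the other 3 overlapped with their neighbours. A Gimap7 UMI was found in 74 of 98 CD8 barcodes with granzyme UMIs (75.5%), against 39.4% of CD8 barcodes without, 30.2% of Cd4 and 36.4% of Cd79a barcodes. After each barcode was thinned to the same depth, the UMI limit, the shares were 31.6% (22.6% to 41.8%), 10.1% (7.38% to 13.5%), 11.1% (7.32% to 16.0%) and 12.1% (5.38% to 22.5%). None of the erythroid, neutrophil, monocyte and platelet marker barcodes above held a Gimap7 UMI.

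Gimap4 was lower in Cd79a barcodes than in each of the 3 T classes. Its levels were 6.95 per 10000 (6.30 to 7.65) in CD8 barcodes with granzyme UMIs, 5.89 (5.44 to 6.37) in Cd4, 3.61 (3.40 to 3.82) in CD8 without granzyme UMIs and 2.51 (1.96 to 3.16) in Cd79a barcodes. Within the Cd79a class 16 of its 72 UMIs came from 1 barcode that held no Cd3d, Cd3e or Cd3g UMI, and the level of the other 65 barcodes was 2.00. The median Cd79a barcode held no Gimap4 UMI, while the median was 5.18 per 10000 for Cd4 barcodes.

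Gimap3 and Gimap5, the related pair at the end of the cluster, differed in their patterns. Gimap3 had more UMIs than any other member in the classes pooled, 3312 in all, and stood at 7.06 per 10000 in Cd4, 6.13 in CD8 with granzyme UMIs, 4.36 in CD8 without and 4.01 in Cd79a barcodes. Gimap5 had the fewest, 668, and stood at 1.75 (1.43 to 2.11) in CD8 barcodes with granzyme UMIs and between 1.03 and 1.22 in the other 3 classes, with overlapping intervals among these and an overlap of the first with Cd79a. In GENCODE vM39 transcripts, 41 distinct windows of 100 bases, taken at every start position and so able to overlap, were common to the pair. They were 1.12% of the windows of Gimap3 and 0.866% of those of Gimap5. No other pair of members shared such a window, and reads from the shared windows cannot be told apart.

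Gimap1 and Gimap6 were as high in Cd79a barcodes as in any T class. Gimap1 stood at 3.94 per 10000 (3.25 to 4.74) in Cd79a, 3.04 (2.72 to 3.40) in Cd4, 2.63 (2.23 to 3.07) in CD8 with granzyme UMIs and 1.63 (1.49 to 1.77) in CD8 without. Gimap6 stood at 4.74 in Cd4, 4.53 in Cd79a, 4.39 in CD8 with granzyme UMIs and 2.77 in CD8 without, and the first 3 overlapped. Gimap8 and Gimap9 showed smaller spans, from 1.5 in Cd79a to 2.39 in Cd4 for Gimap8 and from 1.05 in CD8 without granzyme UMIs to 1.76 in Cd4 for Gimap9. Gimap1os, which GENCODE places antisense to Gimap1, had 116 UMIs in the T classes against 1003 of Gimap1, and since the sources used here do not state whether counting used the strand, reads of the pair may not be fully separated.

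The first comparison asked how the family differed between CD8 T cells with and without granzyme UMIs, that is between cells with and without transcripts of cytotoxic granule proteases. Family UMIs were 1.72 times as frequent with granzyme UMIs (1.63 to 1.82), 1743 among 98 barcodes against 5415 among 404. Gimap7 was 4.07 times higher (3.39 to 4.90), Gimap4 1.93, Gimap5 1.70, Gimap1 1.61, Gimap6 1.58, Gimap9 1.49, Gimap3 1.41 and Gimap8 1.35. On this scale each interval lay above 1, a count for which no share over all genes is given here. A ratio of at least 1.5 was reached by 5 of the 8 members, where 25.2% of the 9163 genes with at least 20 UMIs did so, and a ratio of 1.5 or more in the other direction by 0 members, where 13.2% of genes did so. The median ratio was 1.60 over the members and 1.16 over all genes.

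Gimap7 stayed the member furthest above 1 on the other scales. A change of denominator multiplies every ratio of the comparison by the same factor, so it cannot show any member as steadier than the others. Without ribosomal protein and mitochondrial genes in the denominator the family ratio was 1.42, and 2 of 8 members, Gimap7 at 3.37 and Gimap4 at 1.59, reached 1.5, where 13.0% of genes did so. The median ratio on that scale was 1.32 over the members and 0.958 over all genes. The intervals of Gimap8 (0.912 to 1.36) and Gimap9 (0.967 to 1.55) included 1 there. As UMIs per barcode the family stood at 17.8 with and 13.4 without granzyme UMIs, a ratio of 1.33, while Gimap7 stood at 2.13 and 0.678, a ratio of 3.14. Per barcode the intervals of Gimap3 (0.965 to 1.22), Gimap8 (0.851 to 1.27) and Gimap9 (0.902 to 1.44) included 1. Among barcodes of 3000 to 6000 UMIs, the family ratio was 1.83 and that of Gimap7 3.81. At matched ribosomal shares of 10% to 20%, 20% to 30% and 30% to 40%, Gimap7 stood at 4.62, 2.64 and 2.50 per 10000 with granzyme UMIs against 0.757, 1.14 and 0.896 without. The family stood at 35.1, 26.1 and 19.7 against 19.2, 18.9 and 17.4 in the same bins, so its difference was smaller at higher ribosomal shares. In the last bin there were 8 barcodes with granzyme UMIs.

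Sums of marker lists named for other cells also differed between the classes compared. The natural killer list (Ncr1, Klrb1c, Klrk1 and Nkg7) summed to 33.8 UMIs per 10000 in CD8 barcodes with granzyme UMIs and 7.78 in those without. Nkg7 made up 1837 of its 2032 UMIs with and 2404 of its 2501 without. Nkg7 is also in the effector and memory list used below, so this sum is not particular to natural killer cells. Ncr1 was found in 1 of 98 and 0 of 404 barcodes. The B cell list of 6 genes summed to 1.61 and 1.65, and its genes went in both directions. Igkc was found in 25 of the 98 and in 1 of the 404. Ighm was found in 13 of the 98 and 236 of the 404, and Cd79b in 4 and 51. Ms4a1 was at 0 in the 98. All 4 neutrophil genes were at 0 in the 98 barcodes and summed to 0.709 in the 404. Each of them was found in only 1 to 3 of the 404. The monocyte list (Lyz2, Csf1r, Cst3 and Ccr2) was higher in the 98, at 2.26 against 0.874, and so was the platelet list, at 0.881 against 0.373. Cst3 was found in 45 of the 98 and 167 of the 404, and Ccr2 in 27 and 16. The erythroid list summed to 0.0332 and 0.0280. The part of other cells' RNA in the family ratios was not tested.

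**Figure D2:**
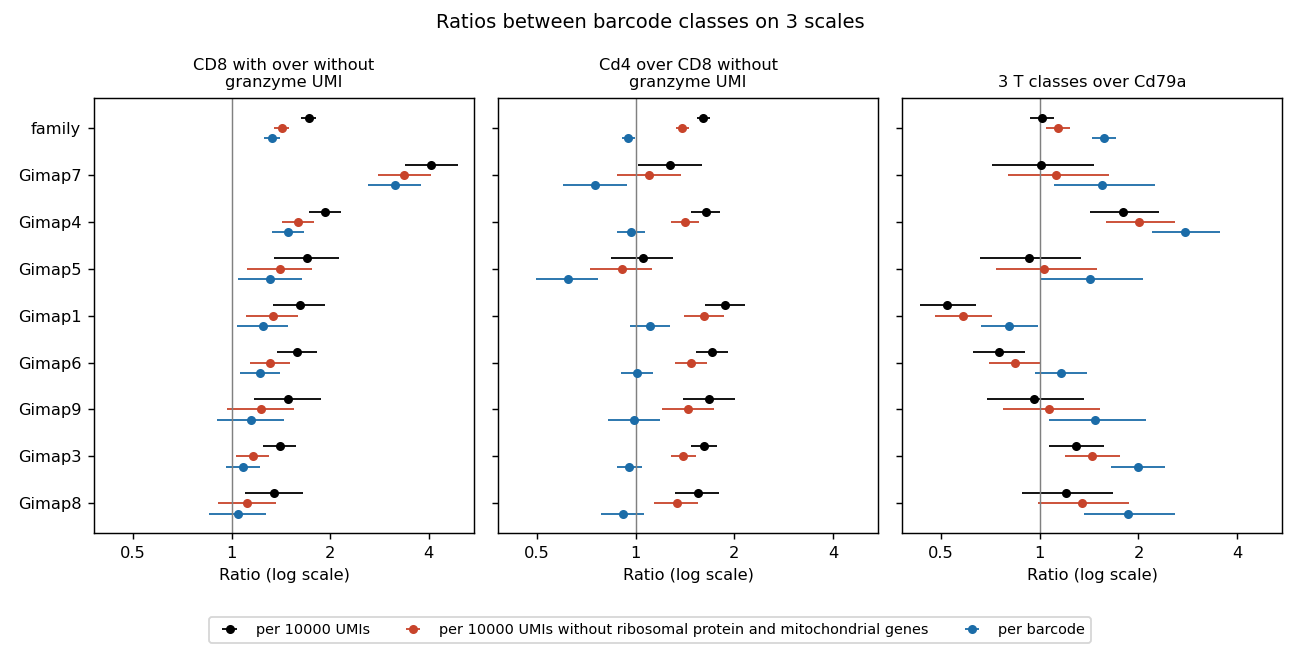
Ratios of the family and of each member (y axis) in the 3 class comparisons, on a log x axis, at a ribosomal share of at least 10%. Points are ratios on 3 scales and bars are exact conditional binomial 95% intervals; the vertical line marks a ratio of 1. For CD8 with over without granzyme UMIs, Gimap7 stood apart at 4.07, 3.37 and 3.14 on the 3 scales, and for Cd4 over CD8 the points per barcode lay near or below 1.

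The second comparison set Cd4 barcodes against CD8 barcodes without granzyme UMIs. Per 10000 UMIs the family was 1.61 times higher in Cd4 barcodes (1.53 to 1.68), and 6 of 8 members had a ratio of at least 1.5, where 24.1% of 9427 genes did so; 0 members were lower by that factor, where 7.00% of genes were. Gimap1 was highest at 1.87 (1.62 to 2.15), followed by Gimap6 at 1.71, Gimap9 at 1.67, Gimap4 at 1.63, Gimap3 at 1.62 and Gimap8 at 1.54. Gimap7 stood at 1.28 (1.02 to 1.59) and Gimap5 at 1.05 (0.841 to 1.30). The direction depended on the scale: the deeper CD8 barcodes held 13.4 family UMIs each and the Cd4 barcodes 12.7, a ratio of 0.949 (0.906 to 0.993). Without ribosomal protein and mitochondrial genes the ratio was 1.39, with 1 of 8 members, Gimap1 at 1.61, above 1.5, where 13.9% of genes were, so that count was near the share over all genes. Gimap5 stood at 0.906 on that scale and at 0.620 (0.497 to 0.770) per barcode. Among barcodes of 3000 to 6000 UMIs the family ratio was 1.67. At ribosomal shares of 10% to 20%, 20% to 30% and 30% to 40% the family stood at 30.9, 28.1 and 22.2 per 10000 in Cd4 barcodes against 19.2, 18.9 and 17.4.

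The third comparison set the 3 T classes together against Cd79a barcodes. The family sum hardly differed per 10000 UMIs, with 20.6 in T and 20.3 in Cd79a barcodes and a ratio of 1.02 (0.934 to 1.11), but the members went in both directions. The T value is a mix: it pools 29.0 in CD8 barcodes with granzyme UMIs, 27.1 in Cd4 and 16.8 in CD8 barcodes without granzyme UMIs. Gimap4 was 1.80 times higher in T barcodes (1.42 to 2.31) and Gimap3 1.29 times (1.07 to 1.57), while Gimap1 stood at a ratio of 0.523 (0.430 to 0.640) and Gimap6 at 0.750 (0.627 to 0.904). The intervals of Gimap5, Gimap7, Gimap8 and Gimap9 included 1. In each direction 1 of 8 members passed a factor of 1.5, where 26.1% of 9926 genes were higher and 23.4% lower. Gimap1 stayed below 1 on the other scales too, at 0.584 without ribosomal protein and mitochondrial genes, 0.598 among barcodes of 3000 to 6000 UMIs and 0.806 per barcode. For the family sum the ratio was 1.37 (1.23 to 1.53) among barcodes of 3000 to 6000 UMIs and 1.57 (1.44 to 1.71) per barcode, and Gimap6 moved to 1.01 and 1.16. The window also changed the mix of T barcodes. It held 121 of 225 Cd4 barcodes, 97 of 404 CD8 barcodes without granzyme UMIs and 56 of 98 with them. The parts of depth and of this mix in the change were not tested. Without its barcode with most UMIs in the Cd79a class, Gimap4 stood at 2.26 and Gimap3, which had 17 of 115 UMIs in 1 barcode, at 1.46.

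The make-up of the family does not depend on the denominator. Gimap7 was 12% of the family's UMIs (10.5% to 13.6%, exact binomial) in CD8 barcodes with granzyme UMIs, 5.06% (4.49% to 5.68%) in CD8 without, 4.02% (3.33% to 4.81%) in Cd4 and 6.02% (4.23% to 8.28%) in Cd79a barcodes. Gimap1 was 19.4% (16.3% to 22.9%) in Cd79a barcodes against 9.06% to 11.3% in the T classes, and Gimap4 was 12.4% (9.82% to 15.4%) there against 21.4% to 24.0%. Gimap3 and Gimap4 were the 2 members with most UMIs in each T class, at 21.2% to 26.1% and 21.4% to 24.0% of the family.

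**Figure D3:**
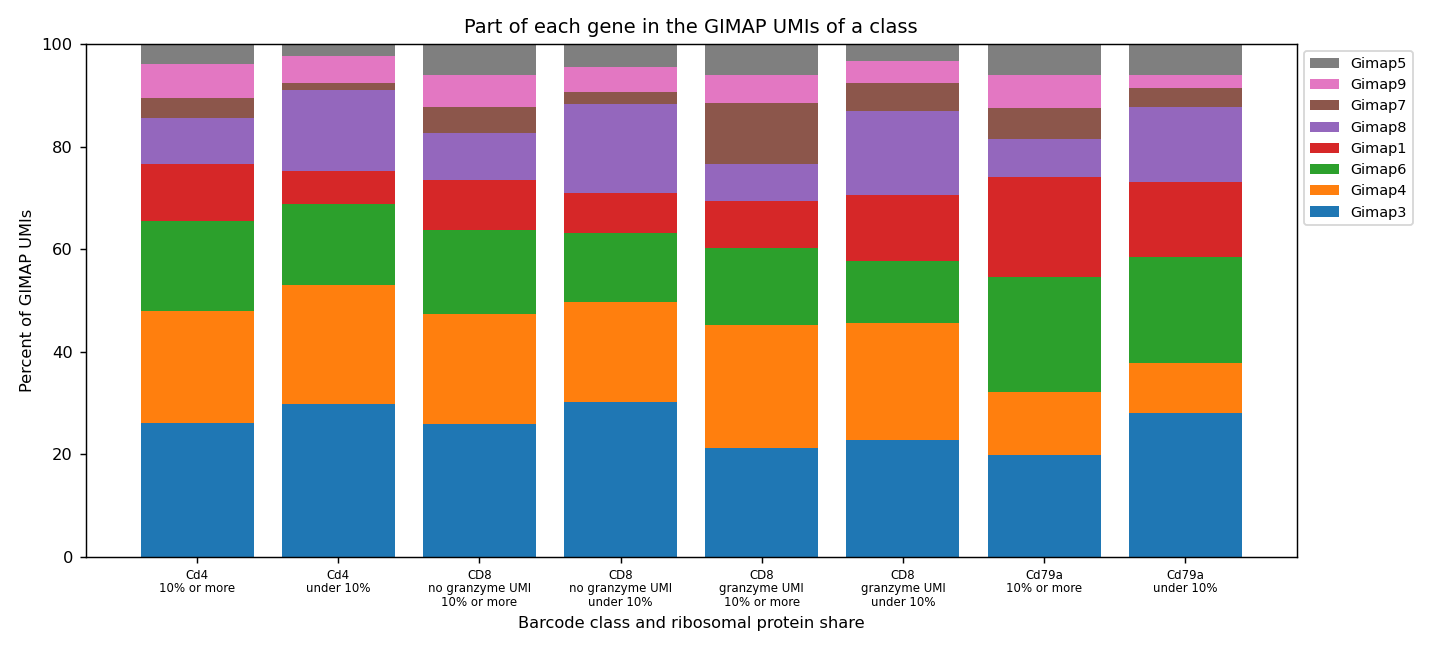
Percent of the family's UMIs from each member (y axis, stacked to 100) in the 4 classes by ribosomal protein share (x axis). Gimap7 took 12% in CD8 barcodes with granzyme UMIs and a ribosomal share of at least 10%, and Gimap8 took 14.6% to 17.3% in the bars under 10% against 7.23% to 9.20% in the others.

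The number of different members seen in 1 barcode differed between classes, and their order depended on depth. Unthinned, the mean was 6.11 in CD8 barcodes with granzyme UMIs, 5.25 in CD8 without, 5.11 in Cd4 and 4.36 in Cd79a barcodes, and 30 of the 404 CD8 barcodes without granzyme UMIs held all 8. Thinned to the same depth, the means were 2.92, 1.88, 2.68 and 2, so that CD8 barcodes without granzyme UMIs moved from above to below Cd4.

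Gimap7 also varied among the T barcodes of 1 class, along with markers of effector and memory cells. In CD8 barcodes with granzyme UMIs it stood at 5.08 per 10000 (4.22 to 6.07) in the 39 that held Gzmk together with Gzma or Gzmb, at 2.63 (1.97 to 3.44) in 35 with Gzmk alone and at 2.12 (1.47 to 2.96) in 24 with Gzma or Gzmb and no Gzmk. The first did not overlap with the others. With at least 2 granzyme UMIs it stood at 3.92 and with 1 UMI at 1.86, a ratio of 2.11 (1.37 to 3.38). With a UMI of Klrg1, an inhibitory receptor of effector cells, it stood at 4.62 and without at 3.06, a ratio of 1.51 (1.12 to 2.02). With a UMI of the chemokine receptor Cx3cr1 it stood at 4.09 and without at 2.96, a ratio of 1.38 (1.05 to 1.84). The family sum differed less, by 1.35 (1.19 to 1.53), 1.11 (0.995 to 1.23) and 1.26 (1.15 to 1.39) in the same 3 contrasts. All these ratios are per 10000 UMIs. The 51 barcodes with Cx3cr1 held 112 Gimap7 and 893 family UMIs, and the 47 without held 97 and 850. Per barcode the family sum was therefore slightly lower with Cx3cr1, and Gimap7 only slightly higher. In the other contrasts both were higher per barcode too. The part of depth was not tested.

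In CD8 barcodes without granzyme UMIs the chemokine gene Ccl5 divided the family. Gimap4 stood at 4.91 with and 2.80 without a Ccl5 UMI, a ratio of 1.75 (1.56 to 1.97), and Gimap7 at 1.08 and 0.709, a ratio of 1.53 (1.20 to 1.95). Gimap1 was lower with Ccl5, at a ratio of 0.780 (0.646 to 0.939), and Gimap3 stood at the same level in both, at a ratio with an interval of 0.896 to 1.11. Il2rb, a receptor subunit for interleukins 2 and 15, gave another split of the same barcodes: with it Gimap4 was higher at a ratio of 1.60 (1.40 to 1.84) and Gimap1 lower at 0.709 (0.594 to 0.848), while Gimap7 stood at 0.971 (0.752 to 1.26). These ratios are per 10000 UMIs. Gimap1 had 170 UMIs in 132 barcodes with Ccl5 and 353 in 272 without, and 309 in 236 with Il2rb and 214 in 168 without. Per barcode it therefore hardly differed in either split, while Gimap4 was higher per barcode in both. These subsets are parts of 1 library and were chosen with other results in view. Barcodes with more UMIs are more likely to show any given gene, and the medians here were 9606 UMIs with and 7506 without Ccl5.

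In Cd4 barcodes S100a4, a gene of memory and effector cells, marked 45 of 225. Gimap7 stood at 1.84 with and 0.827 without it, a ratio of 2.23 (1.51 to 3.27). Gimap6 and Gimap9 went the other way, at ratios of 0.6 (0.470 to 0.759) and 0.492 (0.314 to 0.743), and the family sum stood at 0.94 (0.862 to 1.02). The 11 Cd4 barcodes with a granzyme UMI had Gimap7 at 2.23 (1.32 to 3.52) against 0.993 in the other 214. In 14 barcodes with Foxp3, the regulatory T cell factor, the family stood at 27.4 against 27.0 without it, a ratio of 1.01 (0.876 to 1.17), and Gimap7 at 0.961 (0.405 to 1.96).

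Clonotypes were compared within CD8 barcodes with granzyme UMIs. Gimap7 stood at 4.36 per 10000 in 42 barcodes whose clonotype was seen in at least 2 cells and at 3.0 in 49 whose clonotype was seen once, a ratio of 1.45 (1.09 to 1.93), and the family sum at 31.9 and 26.4, a ratio of 1.21 (1.09 to 1.33). The 42 barcodes held 97 Gimap7 and 709 family UMIs, and the 49 held 105 and 922. Per barcode the family sum was therefore lower in the 42, and Gimap7 only slightly higher. The part of depth in these contrasts was not tested. The 3 largest clones were not alike. The clone of 9 barcodes had Gimap7 at 1.33 (0.487 to 2.89), the clone of 8 at 6.12 (4.03 to 8.90) and the clone of 5 at 5.36 (3.0 to 8.84), and the first did not overlap with the others.

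**Figure D4:**
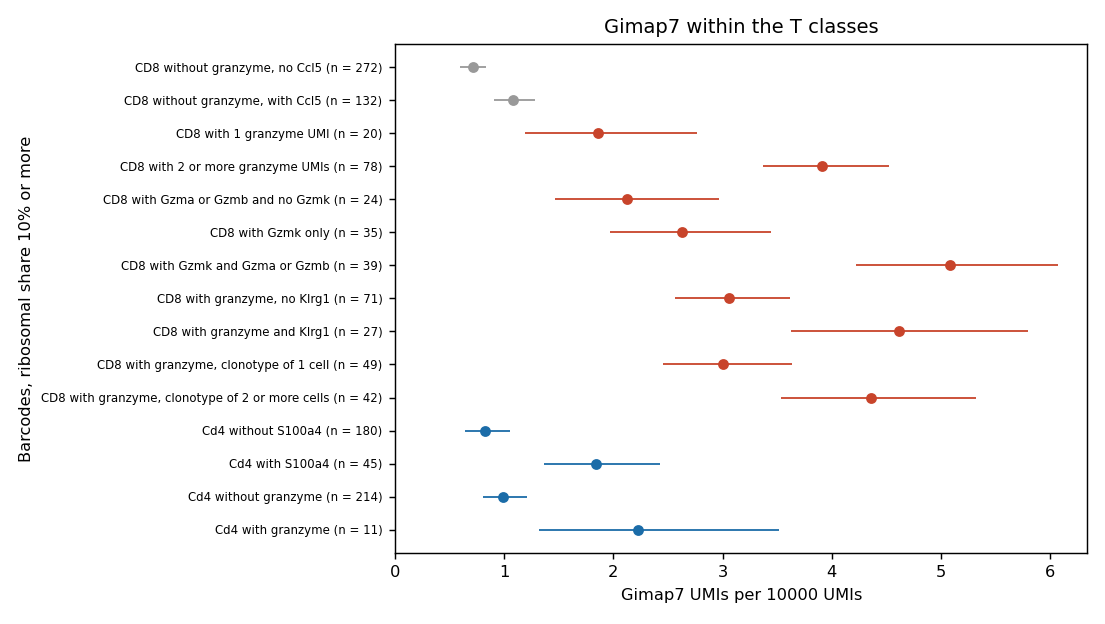
Gimap7 UMIs per 10000 UMIs (x axis) in subsets of the T barcodes (y axis, number of barcodes in brackets) at a ribosomal share of at least 10%; bars are exact 95% Poisson intervals, with CD8 barcodes without granzyme UMIs in grey, those with them in red and Cd4 barcodes in blue. CD8 barcodes with Gzmk and Gzma or Gzmb stood highest at 5.08, and CD8 barcodes without granzyme and Ccl5 UMIs lowest at 0.709.

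The last comparisons set barcodes with a ribosomal share under 10% against those of at least 10% within a class. Per 10000 UMIs the family sum was somewhat lower at the low share in Cd4 barcodes and similar on both sides of the limit in CD8 barcodes without granzyme UMIs. In both classes Gimap8 was higher and Gimap7 lower at the low share. In Cd4 barcodes the family ratio was 0.885 (0.822 to 0.953), with Gimap8 at 1.58 (1.28 to 1.94), Gimap3 at 1.01, Gimap4 at 0.94, Gimap6 at 0.802, Gimap9 at 0.711, Gimap5 at 0.521, Gimap1 at 0.503 and Gimap7 at 0.328 (0.174 to 0.574). In CD8 barcodes without granzyme UMIs the family ratio was 1.02 (0.953 to 1.08), with Gimap8 at 1.91 (1.62 to 2.25) and Gimap7 at 0.477 (0.311 to 0.705). In Cd79a barcodes it was 0.652 (0.511 to 0.823) on 82 UMIs in 24 barcodes, with Gimap1 at 0.491 (0.246 to 0.891) and Gimap8 at 1.29 (0.619 to 2.49).

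These counts were read against all genes. In Cd4 barcodes 1 of 8 was higher by a factor of 1.5, where 44.0% of 7758 genes were, and 3 were lower, where 24.5% of genes were. In CD8 without granzyme UMIs 1 was higher (54.7% of genes) and 1 lower (18.9% of genes), and in Cd79a 0 were higher (44.9% of genes) and 6 lower (32.2% of genes). Of these 6, Gimap4, Gimap5, Gimap6 and Gimap7 had intervals that included 1, on 8, 5, 17 and 3 UMIs at the low share. The median ratio over all genes was 1.34, 1.68 and 1.26 in the 3 classes, and on this scale a smaller ribosomal share leaves more of each 10000 UMIs to other genes. Without ribosomal protein and mitochondrial genes the family ratios were 0.685 in Cd4 and 0.685 in CD8 without granzyme UMIs and 0.514 in Cd79a, and Gimap8 stood at 1.22, 1.29 and 1.02. On that scale no member was higher by a factor of 1.5 in any of the 3 classes, where 32.4%, 37.0% and 37.6% of genes were. In Cd4 barcodes 5 of 8 were lower, where 33.0% of genes were, in CD8 without granzyme UMIs 6 of 8, where 29.4% were, and in Cd79a 6 of 8, where 39.2% were. Per barcode Gimap8 stood at 0.933 and 0.853 in the Cd4 and CD8 classes and Gimap7 at 0.194 and 0.213, so Gimap8 was not higher per barcode in either class.

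Above 10% the level of Gimap8 per 10000 UMIs fell as the ribosomal share rose, as did the family sum in the same bins given above. A larger ribosomal share leaves less of each 10000 UMIs to other genes, which lowers such levels by construction. The size of that part was not tested. Under 10% Gimap8 showed no steady fall with the share. In Cd4 barcodes it stood at 3.34, 2.20 and 1.79 per 10000 at shares of 10% to 20%, 20% to 30% and 30% to 40%, and at 4.06, 3.11 and 5.22 at shares of 0% to 2%, 2% to 5% and 5% to 10%. In CD8 barcodes without granzyme UMIs the same 6 values were 2.0, 1.72 and 1.59, and 2.89, 3.05 and 2.83. Just beside the limit, 18 barcodes of the 4 classes at 8% to 10% had a family level of 26.9 (22.9 to 31.4) and 19 at 10% to 12% had 32.0 (28.0 to 36.4). Barcodes under 10% were also shallower, with medians of 2718 UMIs in Cd4 and 3381 in CD8 without granzyme UMIs, and a clonotype was assigned to 36.2% and 24.2% of them. The 6 T cell markers summed to 14.6 against 34.9 per 10000 in the Cd4 classes and to 12 against 27.1 in the CD8 classes. Platelet markers summed to 1.66 against 0.983 in Cd4 and 1.61 against 0.373 in CD8. Neutrophil markers summed to 0.0510 against 0.00946 in Cd4, on 2 and 1 UMIs, and to 5.18 against 0.709 in CD8. The CD8 sums came from few barcodes. Each neutrophil gene was found in 2 to 4 of the 194 under 10% and in 1 to 3 of the 404 others. Among the barcodes with a clonotype alone, the family ratio in Cd4 was 1.02 (0.916 to 1.13). The part of depth and of other cells' RNA in these ratios was not tested.

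**Figure D5:**
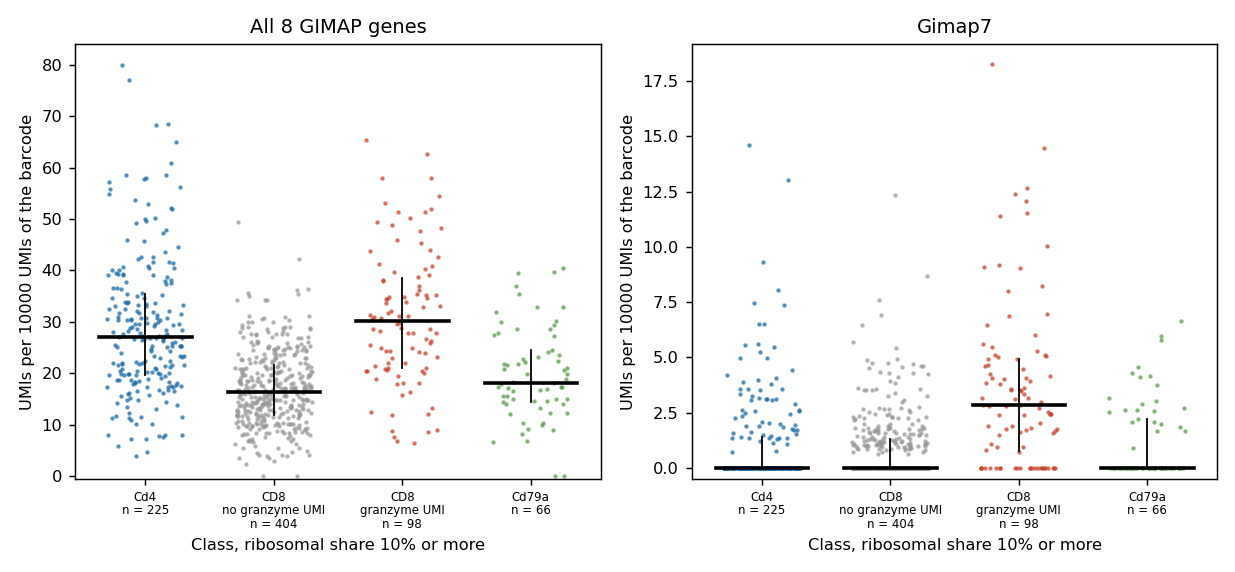
UMIs per 10000 UMIs of each barcode (y axis) for the 8 members summed and for Gimap7, by class (x axis), at a ribosomal share of at least 10%. Points are barcodes, thick lines medians and thin lines the quartiles; the median of Gimap7 was 2.83 in CD8 barcodes with granzyme UMIs and 0 in the other 3 classes.

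Lists of other T cell genes were set beside the family for the first comparison, CD8 barcodes with over those without granzyme UMIs. Of 12 genes of resting T cells, 0 were higher by a factor of 1.5 and 9 were lower, with a median ratio of 0.466. The lowest were Igfbp4 at 0.0355 and Dapl1 at 0.0726, and the highest were Klf2, a factor of quiescence, at 1.39 (1.29 to 1.5) and S1pr1, the receptor for leaving lymphoid organs, at 0.951. Of 15 effector and memory genes, 15 were higher, with a median of 5.34. Klrg1 had 47 UMIs with and 0 without granzyme UMIs, a ratio whose interval began at 65.4, or 83.7 with 3 UMIs put in place of the 0. Cx3cr1 stood at 30.6, and Il2rb and Klrd1 were lowest at 1.54 and 1.59. The family's median of 1.60 lay between those of both lists. Of all genes 25.2% were higher and 13.2% lower, with a median of 1.16. For Cd4 over CD8 barcodes without granzyme UMIs, the resting list had 2 genes higher and 1 lower with a median of 1.36, and the effector list 7 higher and 6 lower with a median of 1.15. In that comparison 24.1% of all genes were higher and 7.00% lower, with a median of 1.21.

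The list of 9 BCL2 family genes mixes antiapoptotic and proapoptotic members, so its median has no single direction for survival. Of them 3 were higher and 2 lower, with a median of 1.37, beside 25.2% and 13.2% of all genes and their median of 1.16. The antiapoptotic gene Bcl2 stood at 0.574 (0.493 to 0.666) and the proapoptotic Bbc3 at 0.521, while the proapoptotic Bad stood at 2.24 (1.28 to 3.80) and, at the same ratio of 2.00, the proapoptotic Bak1 (1.27 to 3.08) and the antiapoptotic Bcl2l1 (0.94 to 4.0). Of 10 GABARAP and LC3 autophagy genes 9 had enough UMIs, 3 were higher and 0 lower, with a median of 1.38, beside the same shares of all genes. Gabarapl2, which encodes the GABARAP protein that Gimap6 binds, stood at 1.96 (1.61 to 2.38) and Atg7 at 2.36 (1.30 to 4.14), and the lowest were Becn1 at 1.30 and Map1lc3a at 1.11, both with intervals that included 1. In the same comparison Gimap6 stood at 1.58. For Cd4 over CD8 barcodes without granzyme UMIs the BCL2 list had 1 gene higher and 1 lower (median 0.931) and the autophagy list 2 higher and 0 lower (median 1.15). Beside them, 24.1% of all genes were higher and 7.00% lower, with a median of 1.21.

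Over the 8 combinations of class and ribosomal share, the genes outside the family whose levels were most like the family sum were Hnrnpa2b1 (Pearson r = 0.944), Tmbim6 (0.910), 2310001H17Rik (0.906), Mkrn1 (0.904) and Daxx (0.897). These were taken from 8876 genes on the scale of log2 of UMIs per 10000 plus 0.1, and the 8 points come from 1 library and share its depth and composition. Among the members, r with the sum was 0.908 for Gimap4, 0.879 for Gimap9, 0.818 for Gimap3, 0.714 for Gimap6, 0.611 for Gimap7, 0.457 for Gimap1, 0.354 for Gimap5 and 0.339 for Gimap8. Each member is itself part of that sum. With Gimap7 itself, r was 0.870 for Gimap5 and -0.30 for Gimap8.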

How the data were processed

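Gene expression was measured in T cells enriched from the blood of 1 vehicle-treated mouse, as 1 library. Per the file headers and the submitters' processing notes, the authors made the deposited matrix of whole-number counts (UMIs per gene and barcode, not normalized) with Cell Ranger 4 and the GRCm38 genome; the matrix was not filtered for cells. T cell receptor clonotypes were matched by barcode. Whether counting used the strand is not given in the sources used here.

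From these counts, barcodes with at least 1331 UMIs were kept (1600 of 300213) and classed by UMIs of Cd4, Cd8a, Cd8b1, Cd79a and the granzyme genes Gzmk, Gzma and Gzmb, and by a ribosomal protein share under or of at least 10%. Median depth was 3935 UMIs, of 12855001 in the matrix. UMIs were pooled over the barcodes of a class and divided by the class total, with exact Poisson intervals for levels, exact conditional binomial intervals for ratios and Clopper-Pearson intervals for shares, all at 95%. Barcodes are not replicates, so no p-value was computed. A gene was counted as higher or lower past a ratio of 1.5, and only genes whose 2 classes summed to 20 UMIs or more were counted. For shares of barcodes with a UMI, each barcode was thinned to the UMI limit or to 2500 UMIs.

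Doublets were called with Scrublet in Scanpy, which predicted 10 barcodes (0.625%, 8 of them in the 4 classes); they were kept, and left out as an alternative. Barcodes with markers of cells that should lack the genes had at least 3 of the 4 genes of 1 marker list and no CD3 or Cd79a UMI, a rule set after the data were seen, as were the depth window of 3000 to 6000 UMIs and the subsets. All 8 members were named; of the resting, effector and memory, BCL2 and autophagy lists, the genes named are the 2 highest and 2 lowest ratios for CD8 barcodes with over without granzyme UMIs. The members and lists were chosen with earlier results of these data known. Loci and promoter sequences came from RefSeq on GRCm38.p6 and shared transcript stretches from GENCODE vM39. The ratio computation was tested on simulated data. Python 3.11.15, NumPy 2.4.6, pandas 2.3.3, SciPy 1.17.1, Scanpy 1.11.5 and Matplotlib 3.10.9 were used.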

Additional observations from a re-analysis of the deposited data

Results flagged for a closer look

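Counts outside the comparisons above held family signal above the limit that a count of 0 allows. Barcodes at or over the UMI limit but outside the 4 classes had 23.1 family UMIs per 10000 at a ribosomal share of at least 10% (193 barcodes) and 14.6 under it (245 barcodes). Among them, a group of 170 barcodes with a CD3 UMI had 25.3 (24.2 to 26.5), and the 11 with natural killer markers had the 28.7 given above. The 170 are not all that held a CD3 UMI, as Cd3e was found in 161 of the 193 and 113 of the 245. Barcodes of 200 UMIs up to the limit, which were not used as cells, had 5.53 family UMIs per 10000 over 1908 barcodes, and 20532 barcodes of 10 to 50 UMIs had 13.4, with Gimap7 at 0.504. Gimap1os, the transcript antisense to Gimap1 that is not counted as a member, stood at 0.238 UMIs per 10000 in the T classes at a ribosomal share of at least 10%.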

How the results depend on the processing

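No paired analysis was possible because there is 1 sample, and for the same reason no replicate could be left out. Of the alternative values for the family ratios, 67 stayed within the reported interval, 22 moved beyond the interval of the value reported and 2 turned; for single members the counts were 550, 68 and 14. A turn was counted only where the reported interval lay to 1 side of 1, so that values near 1 that crossed it stand among the others. CD8 with over without granzyme UMIs gave 1.42 without ribosomal protein and mitochondrial genes, 1.33 per barcode, 1.83 at 3000 to 6000 UMIs, 1.84 without Gimap3 and Gimap5 and 1.83 without Gimap3. Cd4 over CD8 gave 1.39, 1.69 as a mean over barcodes, and turned per barcode to 0.949, as did Gimap3 (0.957), Gimap4 (0.965), Gimap7 (0.754), Gimap8 (0.912) and Gimap9 (0.988); Gimap5, whose reported interval included 1, went from 1.05 to 0.620. T over Cd79a gave 1.13 without ribosomal genes, 1.14 as a mean over barcodes, 1.57 per barcode and 1.37 at 3000 to 6000 UMIs, and Gimap6 turned to 1.16 and 1.01 in the last pair.

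Low over high ribosomal share in Cd4 gave 0.685 without ribosomal genes, 0.970 at a limit of 15%, 0.524 per barcode and 0.753 at 3000 to 6000 UMIs, and turned to 1.02 with clonotyped barcodes alone, with Gimap6 at 1.07 and Gimap9 at 1.01; Gimap8 turned to 0.933 per barcode. In CD8 it gave 0.685, 1.1 with clonotyped barcodes, 0.942 at a limit of 5%, 0.453 per barcode and 0.951 at 3000 to 6000 UMIs; Gimap3 turned to 0.797 without ribosomal genes and 0.527 per barcode, Gimap8 to 0.853 per barcode and Gimap6 to 1.1 with clonotyped barcodes. In Cd79a it gave 0.855 at a limit of 15% and 0.388 per barcode. The mean number of members per barcode was 3.85 (Cd4), 3.02 (CD8 without granzyme UMIs), 4.47 (CD8 with) and 3.36 (Cd79a) when thinned to 2500 UMIs, and 5.11, 5.25, 6.11 and 4.36 unthinned. The alternatives that change the denominator or the depth differ by construction, and the cause of the other moves was not tested. With a pseudocount of 0.5, Dxo took the place of Daxx among the 5 genes outside the family most like its sum. The values per barcode, the 3000 to 6000 UMI window, the removal of the fullest Cd79a barcode and of Cd79a barcodes with CD3 UMIs (family ratio 1.04) were added after the data were seen. With 35 Gimap7 UMIs in the Cd79a class and 24 barcodes of it at the low share, differences there are limited by counting error.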
